A study of Bos taurus with 15 samples.

Results

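Untreated cultures of bovine granulosa cells were the group of this culture experiment that received neither L-lactate nor added NaCl. The questions were which of their transcripts gave high, intermediate and near-background signals and which differed most between cultures. These cultures were identified by the word untreated in the sample titles and make up 5 of the 15 arrays of the series. Granulosa cells were aspirated from bovine abattoir ovaries, from follicles smaller than 6 mm, pooled, cryo-preserved, thawed and kept for 8 days on collagen-coated wells in serum-free medium. Untreated cells already received FSH (20 ng/ml), R3 IGF-1 (50 ng/ml), insulin (10 ng/ml) and androstenedione (2 µM), as did the other groups, in which 5 cultures additionally received 30 mM L-lactate and 5 received 30 mM NaCl. RNA of each culture was hybridized to 1 Affymetrix Bovine Gene 1.0 ST array, and the authors deposited a log2 signal for each transcript cluster, a group of probes against one transcribed locus. The cells were pools from many follicles, and the sources do not say whether the 5 cultures came from separate pools, so every SD given here is the spread between these arrays and may be technical.

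Granulosa cells line the ovarian follicle and nurse the oocyte. FSH acts on them through a receptor that raises cAMP, and the cells respond by making aromatase, which turns androgens from the neighbouring theca cells into estradiol, and by secreting inhibins, activins and follistatin. IGF-1 amplifies the FSH response, and after the LH surge the same cells become luteal cells, which make progesterone.

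The arrays hold 26773 clusters, of which 18457 carry 1 gene symbol, 688 several and 7628 none. The named clusters stand for 18010 genes, and where a gene had more than 1 cluster, the one with the highest mean was taken. Mean log2 signals over the 5 arrays ran between 0.79 and 12.67 with a median of 4.56, and the array medians lay between 4.55 and 4.60. As the files used here give no detection call, olfactory receptors, which the nose uses to sense odours, stood in for background. The 717 olfactory receptor clusters had a median of 2.04, and 95% of them were at or below 3.81, which was taken as the near-background ceiling. The highest olfactory receptor cluster, OR13C2E, reached 6.86, so a signal between 3.81 and 6.86 lies above the ceiling but within the range that this receptor family covers. The high class was the top 5% of all clusters, which started at 9.16.

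By these limits, 10466 clusters (39.1%) were near background, 14968 (55.9%) were intermediate and 1339 (5.00%) were high. Among the 18010 named genes, 5456 (30.3%) were near background, 11702 (65.0%) were intermediate and 852 (4.73%) were high, and these shares stand as background beside the counts of each gene list. A signal also depends on how well the probes of a cluster bind, so the order is one of signals and not of transcript numbers. Clusters assigned to 1 gene could differ widely, by 9.84 on the log2 scale for GAPDH and by 7.91 for GNAS. Just above the ceiling stood ADAMTS16 (3.81 ± 0.13, SD, n = 5) and just below it CEP57L1 (3.81 ± 0.042). At the start of the high class, PHB2 (9.16 ± 0.052) was just inside and ZKSCAN1 (9.16 ± 0.095) just outside, so membership of genes this close to a limit rests on less than the spread between arrays.

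**Figure D1:**
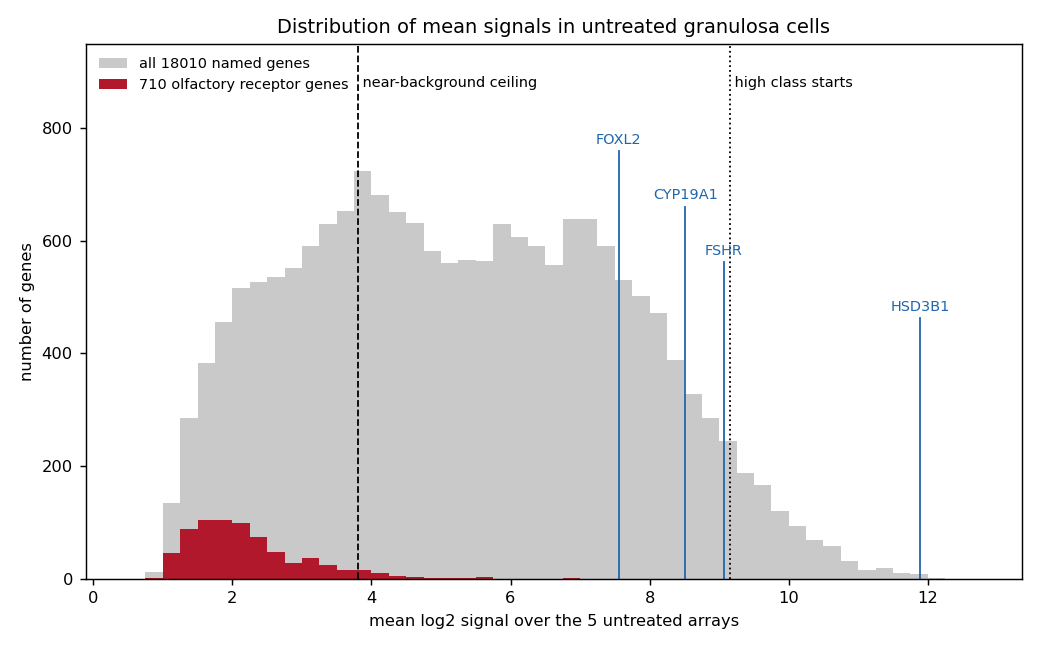
Number of genes (y axis) by mean log2 signal over the 5 untreated arrays (x axis), for all 18010 named genes in grey and for 710 olfactory receptor genes in red. The dashed line is the near-background ceiling at 3.81 and the dotted line the start of the high class at 9.16. The 4 blue lines mark FOXL2, CYP19A1, FSHR and HSD3B1, all to the right of the ceiling, with HSD3B1 in the high class.

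The cells gave clear signals for 4 key genes of granulosa cells. Of these, HSD3B1 does not mark granulosa cells alone, as the paper describes very high expression in fully luteinized cells. HSD3B1, the enzyme that turns pregnenolone into progesterone, had log2 signals of 11.88, 11.91, 11.86, 11.88 and 11.92 on arrays 1 to 5. FSHR, the FSH receptor, had 9.15, 9.08, 8.96, 9.09 and 9.04, and CYP19A1, the aromatase, had 8.66, 8.49, 8.50, 8.45 and 8.46. FOXL2, the transcription factor that keeps granulosa cells from taking on a testicular fate, had 7.70, 7.60, 7.52, 7.46 and 7.48. All 20 of these values lay above the near-background ceiling. HSD3B1 was in the high class and the 5th highest named gene of the array, FSHR lay just under the high class, and CYP19A1 and FOXL2 stood at percentiles 91.4 and 83.5 of all clusters. Array 1 was the highest of the 5 for FSHR, CYP19A1 and FOXL2, and array 5 for HSD3B1.

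Of 23 genes that characterize granulosa cells, 9 were high, 14 were intermediate and 0 were near background. INHBA, the subunit of activin A and inhibin A, had 11.81, 11.79, 11.79, 11.83 and 11.79 on arrays 1 to 5, a spread of 0.020 (SD). Its partner INHA averaged 10.49 ± 0.030, and FST, the activin-binding follistatin, averaged 11.01 ± 0.023. SERPINE2, a secreted inhibitor of plasminogen activators, GJA1, the gap junction protein connexin 43, OXT, the oxytocin precursor that bovine granulosa and luteal cells make, and CDH2, the N-cadherin, were also in the high class, at 11.68, 11.48, 11.08 and 11.03. Transcription factors of the lineage were in both classes, with NR5A2 (9.72 ± 0.019) and GATA6 (9.45 ± 0.022) high, and GATA4 (7.64 ± 0.11) and NR5A1 (7.15 ± 0.032) intermediate. AMH, the anti-Mullerian hormone of small growing follicles, was at 5.76 ± 0.059 and its receptor AMHR2 at 6.55 ± 0.068. The lowest signals of the list came from LHCGR, the LH receptor (4.96 ± 0.12), WT1 (4.84 ± 0.078), HSD17B1, which reduces estrone to estradiol (4.09 ± 0.095), and NR0B1 (4.07 ± 0.074). AMH, AMHR2, LHCGR, WT1, HSD17B1 and NR0B1 lie within the range that single olfactory receptors reached, so whether they are expressed cannot be told from the signal alone.

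Markers of other cells of the ovary gave a mixed picture. Of 10 oocyte markers 9 were near background, among them ZP3 of the egg coat (3.37 ± 0.16) and the oocyte growth factors GDF9 (3.03 ± 0.12) and BMP15 (3.31 ± 0.052). The exception was KIT, the receptor for KIT ligand, with 8.63, 8.66, 8.57, 8.55 and 8.53 on arrays 1 to 5. Endothelial markers were near background in 5 of 9 cases, including PECAM1 (3.30 ± 0.16) and the VEGF receptor KDR (3.17 ± 0.11), and the highest of them, EGFL7, reached 5.04 ± 0.19. Of 9 leukocyte markers, 3 were near background (33.3%), about the share of all named genes (30.3%). Among the 3 was PTPRC, the pan-leukocyte antigen CD45 (2.83 ± 0.16). The highest leukocyte marker, CD68 of macrophages, was at 5.28 ± 0.095. Erythrocyte genes were near background in 3 of 4 cases, and the haemoglobin gene HBA was at 4.17 ± 0.14. All 5 measured Y-linked genes were near background, from EIF1AY at 1.64 to TSPY at 3.77, in cells taken from ovaries.

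The stromal list stood apart from these, with 3 of 8 markers high, 5 intermediate and 0 near background. LUM, the collagen-binding proteoglycan lumican, had 11.71, 11.79, 11.77, 11.75 and 11.76 on arrays 1 to 5 and was the 9th highest named gene. COL3A1, a fibrillar collagen chain, averaged 9.57 ± 0.033 and DCN, the proteoglycan decorin, 9.20 ± 0.11. The smooth muscle genes DES (4.42 ± 0.16) and MYH11 (4.45 ± 0.071) and the receptors PDGFRA (7.75 ± 0.066) and PDGFRB (6.36 ± 0.034) were intermediate. Matrix genes of this list can be transcribed by granulosa cells in culture as well as by stromal cells, and the arrays cannot tell these sources apart. For theca cells, the androgen-making enzyme CYP17A1 was close to the ceiling on 4 arrays, with 3.80, 4.53, 3.91, 3.74 and 3.64, whereas INSL3, the insulin-like peptide of theca and Leydig cells, had 7.75, 7.88, 7.72, 7.59 and 7.57. Epithelial markers of the ovary surface were near background for EPCAM, MUC1, KRT7 and KRT19, with CDH1, the E-cadherin, at 6.60 ± 0.068. Among 5 Sertoli cell factors of the testis, SOX9 was intermediate (6.96 ± 0.069), as was PTGDS, a prostaglandin D synthase (8.12 ± 0.052), and DMRT1 had 4.18 ± 0.20.

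**Figure D2:**
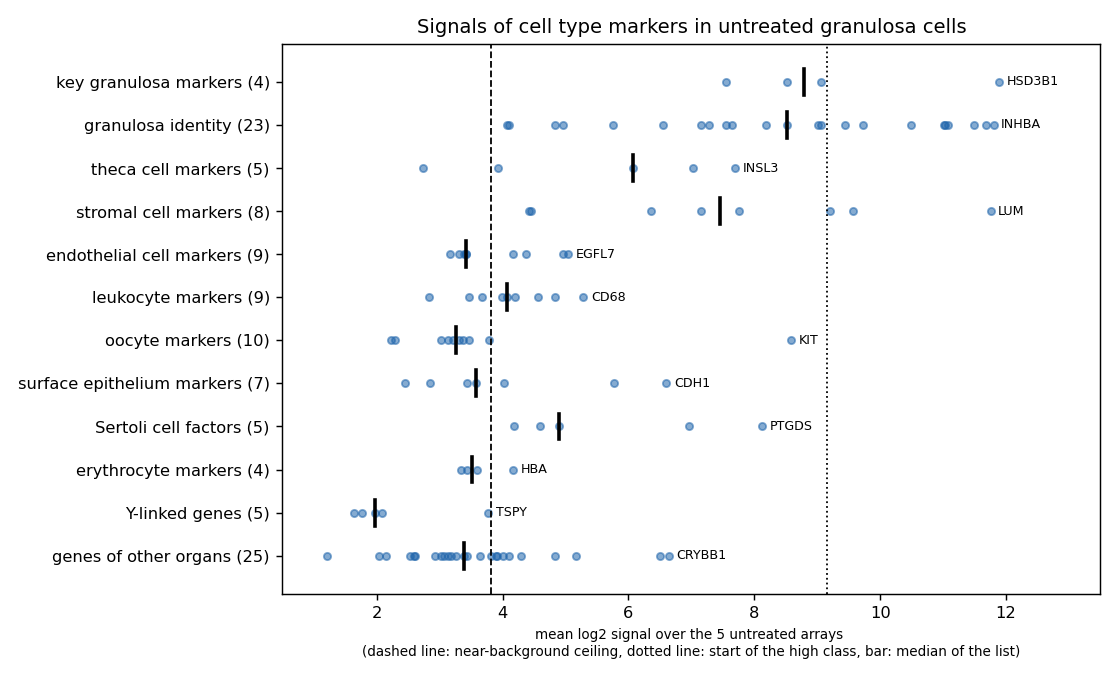
Mean log2 signal over the 5 untreated arrays (x axis) of the measured markers of each cell type (rows, number of measured genes in brackets), 1 point per gene, with the median as a black bar and the highest gene of each row named. The 4 key granulosa markers and all 23 granulosa identity genes lie right of the dashed near-background ceiling, whereas 9 of 10 oocyte markers, 5 of 9 endothelial markers and all 5 Y-linked genes lie left of it.

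As a control of the ceiling, 25 genes of other organs were read on the same arrays, and 15 of them were near background. Albumin (ALB) of the liver was at 2.53 ± 0.12 and the muscle myosin MYH2 at 3.07 ± 0.26. However, CRYBB1, a crystallin of the eye lens, was at 6.65 ± 0.16, the pancreatic trypsinogen PRSS2 at 6.50 ± 0.079 and insulin (INS) at 5.17 ± 0.12. An intermediate signal up to the level of these genes was therefore not by itself a sign of expression, and genes in that range are given as signals only.

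The highest named gene was TIMP1, an inhibitor of matrix metalloproteinases, with 12.19, 12.23, 12.21, 12.17 and 12.19 on arrays 1 to 5. SPARC, a collagen-binding matrix protein, followed with 12.08, 12.08, 12.07, 12.10 and 12.07, and SCD, the desaturase that makes oleic acid from stearic acid, was 7th with 11.89, 11.89, 11.89, 11.84 and 11.89. HIF1A, the oxygen-regulated transcription factor, was 10th with 11.74, 11.73, 11.77, 11.78 and 11.75. The SD of each of these 4 genes was 0.022 or less. Other genes among the 30 highest were the actins ACTG1 (11.91) and ACTB (11.89), GAPDH (11.91), the secreted IGF-binding-like protein IGFBP7 (11.73), the mitochondrial ADP/ATP carrier SLC25A6 (11.71), the proteoglycan serglycin SRGN (11.65), the secreted bridging protein MFGE8 (11.60), the matrix protein periostin POSTN (11.43), the G protein subunit GNAS (11.50), the HDL receptor SCARB1 (11.43), the sialic acid transporter SLC17A5 (11.37), and CLCA3 (11.67) and TMEM254 (11.67).

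The order among the 30 was tighter than the spread between arrays. In 26 of 29 neighbouring pairs the 5 signals of both genes overlapped, and each array had 28 or more of these genes among its own 30 highest. Names cover only part of the top. Of the 100 highest clusters 42 had 1 symbol, 12 several and 46 none, and the first 5 positions carried no single name. The 100 highest clusters had means of 11.15 or more.

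Some genes of steroid synthesis gave high signals. Of 13 measured genes, 5 were high (38.5%, against 4.73% of all named genes), 8 intermediate and 0 near background. Among the intermediate ones, CYP19A1 averaged 8.51. SRD5A1 (5.46) and HSD17B1 (4.09) lay in the range that single olfactory receptors reached, so their expression cannot be told from the signal alone. CYP11A1, the mitochondrial enzyme that cleaves cholesterol to pregnenolone, had 11.29, 11.29, 11.23, 11.23 and 11.31 on arrays 1 to 5, and SCARB1, through which cells take up cholesterol esters, had 11.40, 11.42, 11.41, 11.43 and 11.49. With HSD3B1, genes of cholesterol uptake, side-chain cleavage and progesterone formation were thus in the high class. POR, which passes electrons to CYP19A1 and CYP17A1, averaged 9.94 ± 0.030, and FDX1, the electron carrier for CYP11A1, 8.52 ± 0.097. STAR and FDXR had no cluster with a single symbol and are not described.

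Several genes of lipid supply were also in the high class, which held 4.73% of all named genes. Of 13 cholesterol synthesis genes, 6 were high and 0 near background, with a median of 9.12, led by DHCR7, the last enzyme of the pathway (10.72 ± 0.041), SQLE, a rate-limiting step (10.05 ± 0.046), and FDFT1, the squalene synthase (9.94 ± 0.054). Of 17 genes of lipid storage and desaturation, 9 were high and 0 near background. This list was chosen after the values were seen, so its share of high genes is not a result. Beside SCD they included the lipid droplet coat PLIN2 (10.47 ± 0.066), the desaturases FADS2 (10.47 ± 0.051) and FADS1 (10.39 ± 0.033) and the fatty acid carrier FABP3 (9.99 ± 0.074). The lowest of that list was DGAT2 (4.24 ± 0.088), an enzyme of triglyceride synthesis.

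The machinery that answers the hormones in the medium was mostly intermediate. Of 16 genes of FSH and cAMP signalling, 2 were high, GNAS and the protein kinase A subunit PRKAR2B, and 0 were near background. PRKAR2B had 10.41, 10.34, 10.36, 10.33 and 10.33 on arrays 1 to 5. PRKAR1A and PRKACB, further subunits of protein kinase A, averaged 8.81 ± 0.059 and 8.24 ± 0.029, and PDE4B, a phosphodiesterase that breaks down cAMP, was lowest at 4.42 ± 0.12. In the IGF and insulin list 3 of 20 genes were high, the PI3-kinase subunit PIK3R1 (10.69 ± 0.048), IGFBP5, which binds IGF outside the cell (10.67 ± 0.035), and the receptor IGF1R (9.28 ± 0.055). IGF1 itself, which the medium supplied as R3 IGF-1, was the only near-background gene of the list, with 2.98, 3.13, 3.15, 3.21 and 3.10. The FOXO transcription factors FOXO1 and FOXO3, which insulin and IGF signals shut out of the nucleus, were at 8.91 ± 0.054 and 8.63 ± 0.054. Among 21 receptors, ligands and mediators of the TGF-beta superfamily, SMAD4, the shared partner of the SMAD proteins (10.49 ± 0.020), and the BMP receptor BMPR2 (9.34 ± 0.055) were high and 0 were near background.

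Genes of the response to LH were divided over the classes much as all named genes were. The 12 genes ran between 1.61 and 10.2, with 1 high (8.33%), 8 intermediate and 3 near background (25%). Of all named genes, 4.73% were high and 30.3% near background. TNFAIP6, which cross-links the hyaluronan matrix around the ovulated oocyte, had 10.26, 10.26, 10.26, 10.22 and 10.18 on arrays 1 to 5, and PTGS2, the cyclooxygenase induced before ovulation, had 8.72, 8.69, 8.75, 8.74 and 8.67. By contrast AREG, an EGF-like factor that carries the LH signal to the cumulus, had 2.23, 2.49, 2.11, 2.24 and 2.49, and SULT1E1, an estrogen sulfotransferase, had 1.59, 1.52, 1.80, 1.60 and 1.57. BTC, another EGF-like factor, was near background too, at 3.16 ± 0.16, while PTX3, PGR and ADAMTS1 lay at 6.95, 6.59 and 6.33.

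Genes of protein production and secretion were often high. Of 13 chaperones of the endoplasmic reticulum 9 were high and 0 near background, with the highest median of all lists (10.9), led by HSPA5, the chaperone BiP (11.52 ± 0.021), and the disulfide isomerases P4HB (11.28 ± 0.031) and PDIA3 (11.25 ± 0.028). Of 10 translation factors 7 were high, with PABPC1, which binds poly(A) tails, at 11.39 ± 0.039 and the elongation factor EEF2 at 11.14 ± 0.024. Of 43 genes named as cytosolic ribosomal proteins 26 were high, led by RPS2 (11.60 ± 0.031) and RPL18 (11.41 ± 0.015), but the list reached down to near background for RPL3L, RPS14 and RPL10L. RPL3L and RPL10L are paralogues known from muscle and testis, whereas RPS14 is a constitutive part of the small subunit, so its 3.29 ± 0.094 is an instance of a cluster whose signal does not follow the known use of its gene. Ribosomal proteins have many near-identical pseudogenes, with which their probes may share signal.

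Extracellular matrix genes were high in 9 of 23 cases, with 0 near background. Besides TIMP1, SPARC and LUM these included TIMP2 (11.31 ± 0.018), the hyaluronan-binding proteoglycan versican VCAN (10.74 ± 0.036) and fibronectin FN1 (9.74 ± 0.071), while BGN, the proteoglycan biglycan, lay at the ceiling (3.84 ± 0.26). Of 14 integrins, a list chosen after the values were seen, ITGAV (11.42 ± 0.015) and ITGB1 (10.81 ± 0.032), which pair with each other and with other chains to bind matrix, were high, and ITGA7 was near background. In 3 gene families that were also chosen afterwards, GJA1 was the only connexin of 15 in the high class, with GJA4 next at 7.49 ± 0.077, and CDH2, CDH12 (9.64 ± 0.049) and CDH11 (9.46 ± 0.039) were the high ones of 23 cadherins. Of 15 bovine histocompatibility genes, BOLA-DQB1 was high with 9.51, 9.50, 9.39, 9.43 and 9.10, while 9 were near background, including BOLA-DRA (2.40 ± 0.035), and CD74, the invariant chain that accompanies class II molecules, was at 4.07 ± 0.095.

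Energy metabolism was high to intermediate. Of 17 glycolysis genes 8 were high and 0 near background, led by GAPDH, ENO1 (11.38 ± 0.048) and ALDOA (10.82 ± 0.023). LDHA, the lactate dehydrogenase subunit, gave the lowest signal of the list, at 5.31 ± 0.098, within the range that single olfactory receptors reached. Of 69 nuclear-encoded subunits of the respiratory chain and ATP synthase 23 were high, led by ATP5F1B (10.72 ± 0.062), and 2 were near background, COX8B and COX7B2, forms known from muscle and testis. Mitochondrial ribosomal proteins were intermediate in 69 of 72 cases. Of 17 antioxidant and iron storage genes 9 were high. Among these were the glutathione peroxidases GPX1 (10.81 ± 0.041), GPX4 (10.72 ± 0.035) and GPX3 (10.56 ± 0.022) and the glutathione transferase GSTA1 (10.78 ± 0.044). GSTP1 was the only one of the 17 near background (2.34 ± 0.12). A signal also depends on probe binding, so the low signals of LDHA and GSTP1 do not by themselves show that these transcripts were scarce.

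Cell cycle genes were mostly intermediate. Of 23 proliferation genes 1 was high (4.35%, against 4.73% of all named genes), 22 were intermediate and 0 were near background. Their median was 5.92. CCND2, a cyclin that FSH induces in granulosa cells of the mouse, had 10.27, 10.26, 10.28, 10.20 and 10.23 on arrays 1 to 5. PCNA, the DNA polymerase clamp, followed at 7.94 ± 0.039, and BUB1, a mitotic checkpoint kinase (4.56 ± 0.14), was lowest and also the gene nearest to the median of all clusters. CDKN1A, the p53-induced inhibitor of cyclin-dependent kinases, was the high gene among 9 cell cycle inhibitors (9.61 ± 0.068), and CDKN2A was near background (3.77 ± 0.23). None of 13 apoptosis genes was high. MCL1, which protects from cell death, led with 8.26 ± 0.019, and FASLG, the death ligand, was near background with 3.17 ± 0.060.

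**Figure D3:**
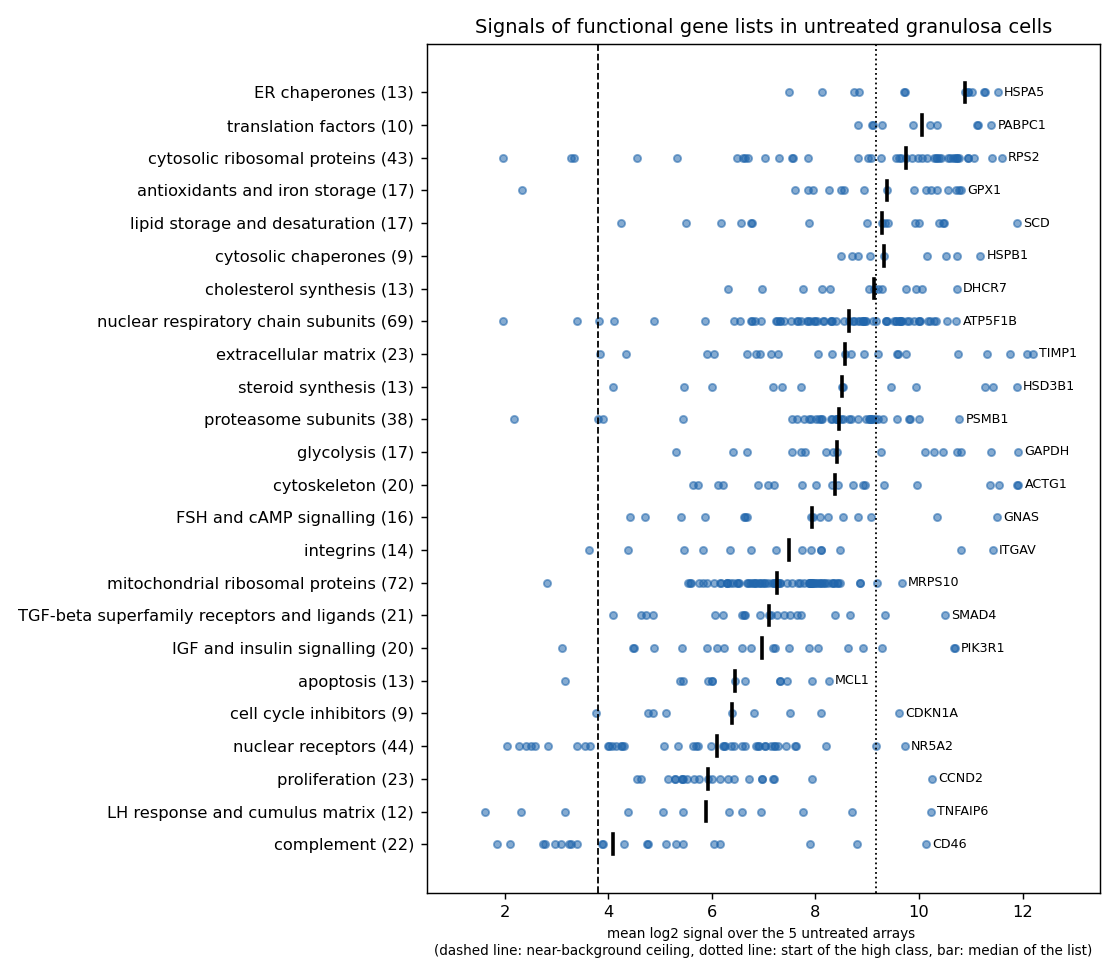
Mean log2 signal over the 5 untreated arrays (x axis) of the measured genes of 24 functional lists (rows, number of measured genes in brackets), 1 point per gene, with the median as a black bar and the highest gene named. The rows run from ER chaperones, with a median of 10.9 in the high class, to complement genes, with a median of 4.10 just above the near-background ceiling.

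Zinc finger genes and nuclear receptors were mostly intermediate, with smaller shares near background than the 30.3% of all named genes. Of 262 zinc finger genes named ZNF, 230 were intermediate, 31 (11.8%) were near background and 1 was high, ZNF207 (9.46 ± 0.061). The nuclear receptors were a list chosen after the values were seen. Of these 44 genes, 2 were high (4.55%, against 4.73% of all named genes), 33 intermediate and 9 near background (20.5%). NR5A2, a receptor that drives steroid enzyme genes in granulosa cells, led with 9.70, 9.70, 9.73, 9.72 and 9.74, and NR1D2, a clock component, followed at 9.17 ± 0.019. Complement genes, chosen likewise, were near background in 9 of 22 cases, and the high one was CD46, a membrane protein that protects cells from complement (10.13 ± 0.032). Of the 528 microRNA genes, which the array reads through clusters on their hairpins or host transcripts, 418 (79.2%) were near background and 1 was high, MIR2315 (10.05 ± 0.054). Of 195 clusters of pseudogenes 18 (9.23%) were high, and of 37 clusters of long non-coding RNAs 0 were high, the highest named by a symbol other than a locus number being H19 (6.84 ± 0.13). Protein-coding clusters were near background in 28.6% and high in 4.89% of 17185 cases.

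The spread between the 5 untreated arrays was small and depended on the signal. The median SD was 0.13 for near-background clusters, 0.084 for intermediate and 0.043 for high ones, and 0.099 over all. Among the 16307 clusters above background, 43 had an SD over 0.5. The 100 clusters with the largest SD ran between 0.39 and 1.32, all were intermediate, and only 4 of them carried a single symbol. Because low signals spread more, the SD of a variable gene was set against the median SD of the 200 clusters nearest in mean signal, called the local SD.

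LY6G6C, a small membrane-anchored protein encoded in the histocompatibility region, had the largest SD of any named gene above background, with 3.98, 5.87, 4.40, 4.12 and 4.18 on arrays 1 to 5. Array 2 stood alone at the top, and the SD of 0.77 was 6.25 times the local SD. In the other groups the same gene had an SD of 0.83 over 5 L-lactate arrays and of 0.26 over 5 NaCl arrays. Among the 100 most variable clusters, of which only 4 carry a single symbol, 97 and 96 also exceeded their local SD in L-lactate and in NaCl arrays. These arrays were not used to choose them. As the local SD is a median, about as many clusters in general lie above it as below it. The median ratios of the 100 clusters were 2.93 and 2.98, against 4.43 in the untreated arrays that chose them. The median SD of these clusters was 0.31 in L-lactate arrays and 0.32 in NaCl arrays, against 0.48 in untreated arrays. Single genes could lose their spread, as ZNF81 had 0.38 times and CYP17A1 0.91 times the local SD in NaCl arrays, and CRYAA 0.68 times in L-lactate arrays.

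A second set of genes stood out because they spread more than genes of equal signal. SLC2A3, the glucose transporter GLUT3, had 8.81, 8.35, 8.34, 8.09 and 8.08 on arrays 1 to 5, which was 6.03 times the local SD. NDUFA4L2, a mitochondrial protein induced by low oxygen, had 8.39, 8.10, 8.05, 7.98 and 7.54 (5.69 times), and BNIP3, which marks mitochondria for breakdown under low oxygen, had 9.83, 9.57, 9.57, 9.48 and 9.38 (3.75 times). All 3 were highest on array 1 and lowest on array 5. Prompted by these values, 25 known targets of HIF transcription factors were read as a list that includes these 3, and of the 24 above background 18 had their highest signal on array 1, while 9 were lowest on array 4 and 9 on array 5. Of all 12554 genes above background, 22.8% were highest on array 1, 26.6% lowest on array 4 and 16.8% lowest on array 5. The peak on array 1 was not particular to HIF targets. Array 1 was also highest for 10 of 17 glycolysis genes, some of them HIF targets, and for 8 of 16 genes of FSH and cAMP signalling. The same held for 31 of 71 mitochondrial ribosomal proteins and 23 of 67 respiratory chain subunits above background. By contrast it was highest for 0 of 23 extracellular matrix genes and 1 of 13 cholesterol synthesis genes. PGK1, a glycolytic kinase, had 10.28, 10.14, 10.12, 9.98 and 10.07, with array 1 highest and array 4 lowest, and VEGFA, the vascular growth factor, averaged 9.83 ± 0.075. HIF1A itself had its lowest signal on array 2 (11.73) and its highest on array 4 (11.78). Its SD of 0.020 was only 0.58 times the local SD, so little can be read from its order over the arrays.

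Interferon-stimulated genes varied in another way. IFI6, an interferon-induced mitochondrial protein and the most variable gene of the high class, had 9.90, 9.92, 9.99, 10.42 and 9.94 on arrays 1 to 5, and IFI27, also induced by interferon, had 8.49, 8.46, 8.64, 9.03 and 8.66. In both genes array 4 was highest, and the SD was 4.98 and 4.65 times the local SD. Of 21 measured interferon-stimulated genes, a list chosen after these values were seen, 8 were near background, among them IFIT2 (1.73 ± 0.095). Of the 13 above background 4 were highest on array 4, 5 on array 1 and 0 on array 3, against 17.4%, 22.8% and 19.2% of all genes above background, so the peak on array 4 belonged to single genes and not to most of the list. XIST, the RNA that silences an X chromosome in female cells, was also highest on array 4, with 6.13, 5.98, 5.91, 6.69 and 5.93. TMSB4X, which binds actin monomers, had 8.75, 8.17, 8.32, 8.41 and 7.97, 5.82 times the local SD, with array 1 highest and array 5 lowest.

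Further genes peaked on arrays 2 and 3. The complement component C3 had 5.39, 5.51, 6.03, 5.19 and 5.11 on arrays 1 to 5, and CFB, a factor of the alternative pathway, had 4.55, 4.76, 5.33, 4.38 and 4.73. Array 3 was highest in both, and 5 of the 13 complement genes above background were highest there, against 19.2% of all genes above background. Of the 6 leukocyte markers above background 3 were highest on array 3, where the mean of all 9 was 4.21 against 4.03 to 4.11 on the other arrays, with PTPRC near background. Array 3 was also the highest for 3 of 4 endothelial markers and 4 of 10 genes of other organs above background. The same held for 3 of the 5 near-background Y-linked genes, 39 of 110 microRNA genes above background and 190 of 710 olfactory receptors. Its median signal, 4.60, was the highest of the 5 arrays. Its higher signals were thus not particular to leukocyte markers or complement genes, and were seen in weak signals of other lists. The part of leukocytes in the complement signals was not tested. CYP17A1 was highest on array 2, at 4.53, as were 3 of the 4 theca markers above background, and the mean of all 5 theca markers was 5.65 there and 5.39 to 5.49 on the other arrays. Much of this difference came from CYP17A1. INSL3 and the remaining marker were also highest on array 2, with 7.88 (others 7.57 to 7.75) and 7.12 (others 6.90 to 7.09). PTCH1, the hedgehog receptor, had 6.07 on array 2 and 6.02 to 6.10 on the other arrays. HPGD, which breaks down prostaglandins, had 2.64 on array 2 and 2.64 to 2.87 on the others. Of the 7 surface epithelium markers 4 were near background, and 2 of the other 3 were highest on array 2 as well. Over all genes above background, 19.7% were highest on array 2. KRT19, a keratin of the surface epithelium, had 3.23, 4.17, 3.44, 2.97 and 3.36. Per the study's methods, the aspirated cells were nearly free of theca cells. Whether a varying share of theca or epithelial cells has a part in the spread was not tested, and fewer cells of a type and less RNA per cell cannot be told apart in these pooled cultures. On array 2 lay also the highest signals of 12 of 23 extracellular matrix genes and of 10 of 21 genes of the TGF-beta superfamily.

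**Figure D4:**
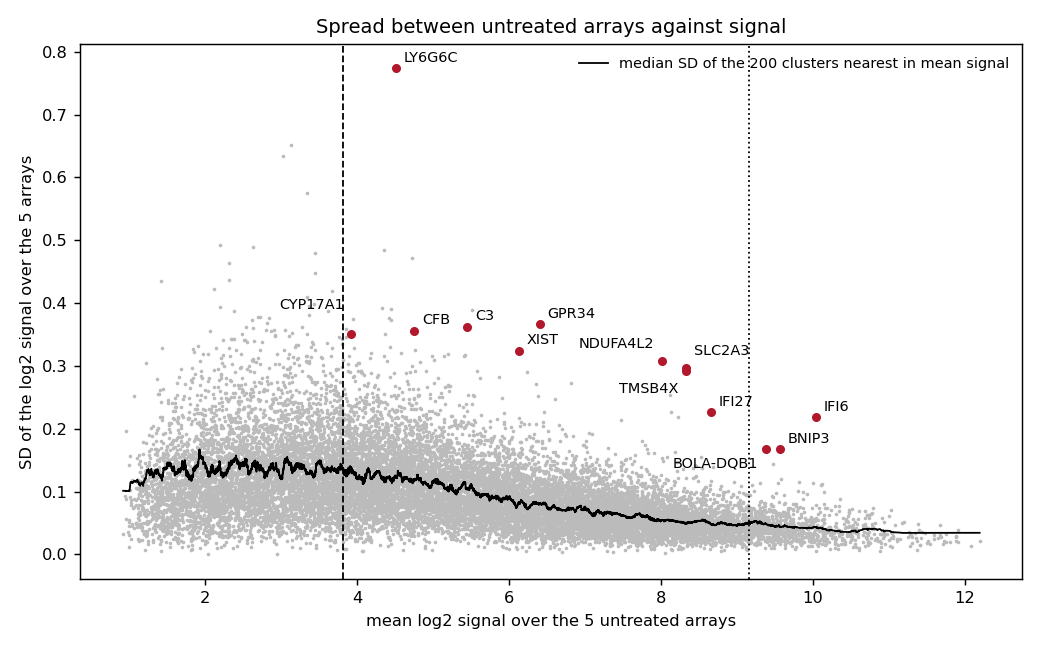
SD of the log2 signal over the 5 untreated arrays (y axis) against the mean log2 signal (x axis), 1 grey point per named gene, with the local SD as a black line and genes named in the text in red. The dashed and dotted lines are the near-background ceiling and the start of the high class. The local SD falls towards high signals, and LY6G6C, SLC2A3, TMSB4X and NDUFA4L2 lie farthest above it relative to its height.

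Array 5 carried the highest signals of 9 of 13 cholesterol synthesis genes and of 10 of 17 genes of lipid storage and desaturation, against 20.9% of all genes above background. The differences were small in each gene. INSIG1, a sterol-regulated brake on cholesterol synthesis, had 9.09, 9.10, 9.11, 9.10 and 9.23 on arrays 1 to 5, and PLIN2 had 10.41, 10.50, 10.46, 10.42 and 10.57. Array 5 was the highest in both.

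**Figure D5:**
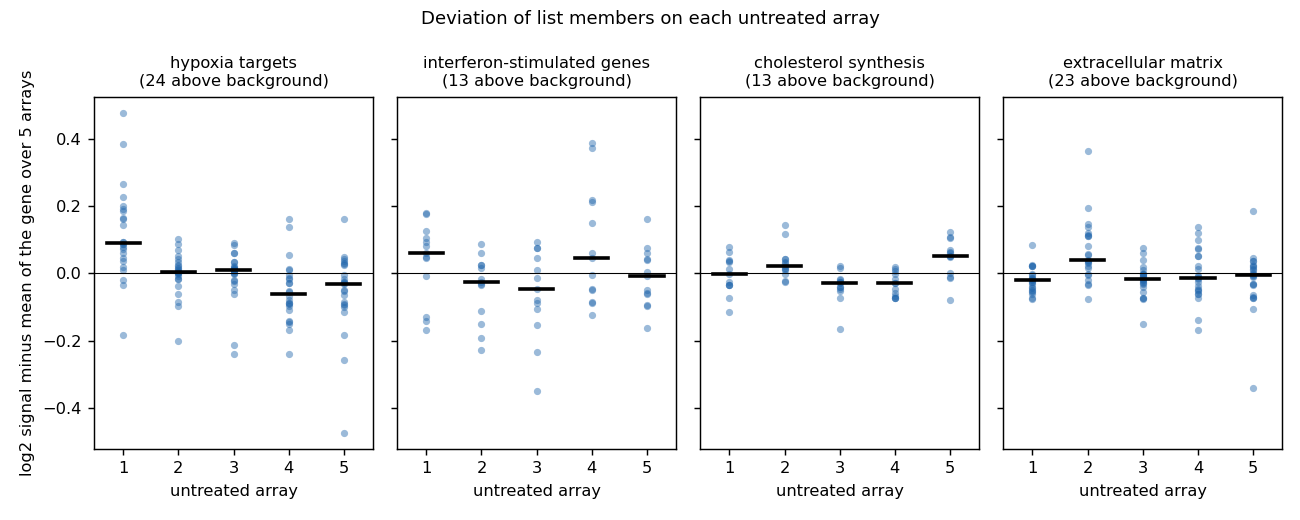
Deviation of the log2 signal on each untreated array from the mean of the gene over the 5 arrays (y axis) by array (x axis), for the above-background members of 4 lists, 1 point per gene and array, with the median as a black bar. Most hypoxia targets lie above 0 on array 1, a few interferon-stimulated genes lie above the rest on array 4, most cholesterol synthesis genes lie above 0 on array 5 and most extracellular matrix genes on array 2.

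At the other end, the most constant genes of the high class barely moved. PTBP1, a splicing regulator, had 10.03, 10.04, 10.03, 10.04 and 10.04 on arrays 1 to 5, an SD of 0.0052. SELENOF, a selenoprotein of the endoplasmic reticulum, followed with an SD of 0.0062 at a mean of 10.88, then UBAP2L (0.0076), SLC17A5 (0.0078) and FXYD6, a regulator of the sodium pump (0.0081). TMEM147, PRDX2, CAPNS1, ACADSB and EMP2 made up the rest of the 10 most constant genes, with SDs up to 0.011. The 4 candidate reference genes that the study examined for qPCR also stayed below their local SD, TBP only narrowly, with SDs of 0.061 for TBP, 0.030 for RPLP0, 0.021 for B2M and 0.020 for GAPDH.

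The order of signals was largely that of the cultured cells in general and not of untreated cells alone. Of the 100 highest clusters in untreated cells, 87 were also among the 100 highest in L-lactate cells and 91 in NaCl cells. Over all 26773 clusters, which share their probes and a joint normalization of the 15 arrays, Spearman's rho of the means was 0.995 for untreated and L-lactate cells and 0.997 for untreated and NaCl cells, given as a description. Of the 10466 clusters near background in untreated cells, 10237 were so in L-lactate cells and 10283 in NaCl cells.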

How the data were processed

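Total RNA of the 5 untreated cultures was measured on Bovine Gene 1.0 ST arrays. The authors deposited 1 log2 signal for each transcript cluster and array, made by background reduction, normalization and RMA summary over all 15 arrays in the Affymetrix Expression Console (1.4.1.46), and these signals were used as deposited. The labels and the methods differ in the RNA isolation kit (NucleoSpin in the labels, RNeasy in the methods). Scanner files and scan dates were not analysed here, so batches could not be examined. Names came from the platform annotation. Of the clusters with 1 symbol, 18166 had a gene ID, and for 17996 of these the ID was found in bovine RefSeq, with 0 symbols changed. Of the clusters, 297 fell into 114 sets with identical values, and 401 genes had several clusters, 107 of them in different classes.

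Means, SDs and ranks over the 5 arrays were computed in Python 3.11.15 (numpy 2.4.6, pandas 2.3.3) and plotted by matplotlib 3.10.9. No test between groups was made, since the ranking uses the values it describes, and single arrays were only screened against Dixon's critical value. Lists and members were chosen with earlier results of these data known, and 7 lists (nuclear receptors, integrins, complement, prolactin and growth hormone axis, lipid storage and desaturation, hypoxia targets, interferon-stimulated genes) and 3 families (histocompatibility genes, connexins, cadherins) were added after the values were seen.

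Genes were named by rule: the 30 highest, all cell type markers, the highest 6 members and the lowest of each list, the 25 largest SDs above background and the 10 smallest SDs of the high class. From these the text names those with known roles, and genes named beyond the rule were chosen after their values were seen. The ranking by the ratio to the local SD was tried on simulated data with independent normal noise. There 183 of 200 clusters with a spread raised 6 times were recovered among 26773. Of the named genes above background, only LY6G6C and SLC2A3 spread that much, so recovery at the smaller ratios of the other genes was not tested. The ranking by SD, which chose the most variable genes and clusters, was not tested either.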

Additional observations from a re-analysis of the deposited data

Results flagged for a closer look

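Within the group of 5 untreated arrays, 13 of the 197 genes named here had a highest or lowest array that stood apart by more than Dixon's critical value of 0.71 (the gap to the nearest array divided by the whole range). Chance alone passes this limit in about 1 of 20 groups (5%), and 7.63% of all named genes passed it. Arrays 4 and 5 were the ones apart in 4 of the 13 genes each.

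On array 4, IFI6 stood high at 10.42, with 9.90 to 9.99 on the other arrays, XIST stood high at 6.69 (others 5.91 to 6.13), SPARC stood high at 12.10 (others 12.07 to 12.08), and SCD stood low at 11.84 (others 11.89). CYP19A1, the aromatase, was high on array 1 with 8.66, and lay between 8.45 and 8.50 on the other arrays. LY6G6C was high on array 2 at 5.87, with 3.98 to 4.40 elsewhere. INSIG1 was high on array 5 at 9.23 (others 9.09 to 9.11), SELENOF was high on array 5 at 10.89 (others 10.87 to 10.88), FST was low on array 5 at 10.97 (others 11.01 to 11.02), and PSMB8 was low on array 5 at 5.22 (others 5.49 to 5.53). Among weak signals, DMRT1 was high on array 3 at 4.54 (others 4.02 to 4.13), PDE4B was low on array 2 at 4.21 (others 4.43 to 4.51), and BOLA-DRA was low on array 1 at 2.34 (others 2.41 to 2.43).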

How the results depend on the processing

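The results are descriptions of 1 group. Of 86 recomputed values 67 kept within 1.5 times of the reported one and 19 moved further. These values are counts and overlaps without a direction, so a reversal was not possible and was not tested. Some of the 19 moved because of how the setting was defined. The sizes of the high class as the top 1% or 10% follow from the percentage. Overlaps among fewer or more highest clusters were set against an overlap among 100, so these moves say nothing on stability. The near-background count depended most on what stood for background. It was 10466 clusters with olfactory receptors, 16297 with taste receptors and keratin-associated proteins (ceiling 5.49, 36 clusters) and 18360 with genes of other organs (ceiling 6.17, 26 clusters), and the 62 near-background genes among 462 measured genes of the lists written gene by gene (those added later included, Y-linked genes, genes of other organs and families defined by their name left out) became 40 or 106 with the 90th or 99th percentile of the olfactory receptors. The high class held 268 clusters as the top 1% and 2678 as the top 10%. Of the 100 highest clusters 42 remained among clusters with 1 symbol, and between 99 and 100 remained when an array was left out.

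Which genes varied most was less stable. Of the 25 most variable genes, 9 were shared when the median absolute deviation replaced the SD, 9 with the ratio to the local SD, 6 without the filter on low signal, and 12 to 19 when an array was left out (12 without array 3). Of the 100 most variable clusters, 54, 50 and 22 were shared under the same 3 changes, 68 to 83 without an array, and 4 among clusters with 1 symbol, a setting chosen after seeing the data. Of the 25 and 1000 highest clusters in untreated cells, 20 and 905 were shared with L-lactate cells and 23 and 954 with NaCl cells.

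The planned summary of promoter and protein features was not run, since no sequence tables were used here. No paired analysis was possible because the results come from no test between groups. With 5 arrays every SD is imprecise, and signals near the ceiling cannot separate weak expression from background.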

Other observations

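Some lists were not described above. Of 38 proteasome subunits, which degrade tagged proteins, 7 were high, led by PSMB1 (10.78 ± 0.041, SD, n = 5), and 2 were near background, PSMB11 and PSMA8, forms known from thymus and testis. Of the subunits that replace others in the immunoproteasome, PSMB10 was at 8.40 ± 0.099, PSMB8 at 5.45 ± 0.13 and PSMB9 at 3.90 ± 0.11. Of 20 cytoskeleton genes 6 were high and 0 near background, with VIM, the intermediate filament vimentin, at 11.38 ± 0.022 and the keratin KRT8 at 8.01 ± 0.018. Cytosolic chaperones were high in 5 of 9 cases, with the heat shock protein HSPB1 at 11.18 ± 0.050.

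Of 8 genes of the prolactin and growth hormone axis 1 was high, the transcription factor STAT3 (9.24 ± 0.035), and 2 were near background. PRLR, the prolactin receptor, had 2.15, 2.25, 2.04, 1.96 and 2.25 on arrays 1 to 5, below the ceiling on each, and GHR, the growth hormone receptor, averaged 5.94 ± 0.066. Histone genes, whose transcripts mostly lack a poly(A) tail, were high in 3 and near background in 11 of 31 cases. Of 14 taste receptors 12 and of 19 keratin-associated proteins 13 were near background, and KRTAP17-1 was the highest of these at 5.94 ± 0.14.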
